A study of Mus musculus with 18 samples.

Results

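The 56 genes described here were selected as higher in FGF6-treated than in vehicle-treated brown preadipocytes at 4 h and close to the vehicle level at 24 h. The cells were an immortalized murine brown preadipocyte line, an undifferentiated precursor of brown fat kept in growth medium, and every group came from this line. Each of the 6 groups, vehicle or recombinant FGF6 at 200 ng/ml for 4, 8, or 24 h, was sequenced as 3 libraries, 18 in all, and each time point had its own vehicle libraries. The sources do not say whether the 3 libraries of a group came from separate cultures, so the p-values measure the spread between these libraries, which may be technical. Members were chosen by measured values. Group means of CPM (a gene's count over the library's total count, times 1000000) were compared as the log2 difference between FGF6 and vehicle after adding 0.5 CPM. A member had at least 1 CPM in 1 or more groups, a difference of at least 0.8 at 4 h, and a difference between -0.3 and 0.3 at 24 h. Of 48023 genes in the table, 13038 passed the level limit, 617 of those had the difference at 4 h, and 56 of the 617 (9.08%) were members. Of the other early genes, 522 were above 0.3 at 24 h and 39 were below -0.3.

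FGF6 is a paracrine fibroblast growth factor that acts through receptor tyrosine kinases, with heparan sulfate proteoglycans as co-receptors. Such receptors switch on the RAS-ERK, PI3K-AKT and phospholipase C pathways, and ERK in turn drives immediate early genes, whose transcripts appear quickly and are often short-lived. The same signal induces its own inhibitors, and transcripts with AU-rich elements in the 3′ untranslated region are removed by zinc finger proteins of the ZFP36 family.

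The library totals ran from 24327816 to 33471980 counts. Of 11 preadipocyte and mesenchymal markers, all except Dlk1, which had no count in any library, were detected in every library. Their sum was lower in FGF6 than in vehicle at each time, which was not tested. It was at 6190 to 6600 against 7980 to 8530 CPM at 4 h and 7590 to 7930 against 10700 to 11200 CPM at 8 h. At 24 h it was at 6440 to 6870 against 11700 to 12400 CPM. Among 8 markers of mature brown adipocytes, Fabp4 was at 62.3 to 168 CPM, Ucp1 did not exceed 0.902 CPM in any library, and Elovl3 was also a member. The sum of these markers, mostly from Fabp4, was lower in FGF6 than in vehicle at each time. It was at 85.9 to 94.7 against 102 to 107 CPM at 4 h and 69.6 to 72.8 against 97.5 to 101 CPM at 8 h. At 24 h it was at 63.7 to 70.2 against 153 to 170 CPM. Macrophage markers summed to 3.34 to 18.4 CPM, mostly from Cd68, with Adgre1, Ptprc, and Itgam at 0.0896 CPM or less. Endothelial markers summed to 0.394 to 5.57 CPM, and skeletal muscle markers to 1.83 to 18.6 CPM. The summed macrophage markers were at 17.4 to 18.4 CPM in FGF6 against 15.1 to 16.0 CPM in vehicle at 4 h, at 10.9 to 11.5 against 11.8 to 13.6 CPM at 8 h, and at 3.34 to 3.97 against 7.62 to 8.73 CPM at 24 h. They were thus higher in FGF6 at 4 h only, and lower at 8 h, when most members were higher. The part of this in the members' values was not tested, and fewer cells of a type cannot be told apart from less RNA per cell. Of the 6 macrophage markers, none was a member.

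Because the rule used the 4 and 24 h values, these are given as a description only. The median difference of the members was 1.03 at 4 h and 0.08 at 24 h, and all 56 had every FGF6 library above every vehicle library at 4 h, beside 23.1% of all 15071 genes tested, which is read here only as the background. The differences at 4 h included 1.57 for Fam20c, 1.55 for Mylk2, and 1.51 for Cyth3. Camk2d (0.80) and Abtb2 (0.81) lay just inside the 4 h limit, and Ammecr1 (0.79), Cep295nl (0.78), and C430002N11Rik (0.78) just outside it. At 24 h, Mtmr7 (0.29) and Jarid2 (0.29) lay just inside the upper limit and Mylk2 (-0.29), Gsap (-0.28), and Rap1gap2 (-0.28) just inside the lower one. Alpi (0.30), Hif3a (0.31), and Gm42679 (0.32) were just above the upper limit, while Zfp469 (-0.34), Fam180a (-0.35), and Notch1 (-0.35) were just below the lower one. At the level limit, Elovl3 reached 1.21 CPM inside it and Gpr84 0.865 CPM, Fgf18 0.742 CPM, and Mirt1 0.707 CPM outside it. The libraries of 37 members overlapped between FGF6 and vehicle at 24 h, beside 25.4% of all genes tested, again only as the background. With each of the 18 libraries left out in turn, 29 of the 56 met the rule every time, among them Sdc1, Cyth3, Arc, Ret, and Ptgir, and 27 missed a limit at least 1 time, among them Fam20c, Mylk2, Socs2, Jarid2, and Sh3pxd2b. Vehicle replicate 3 at 24 h stood apart from the other vehicle libraries of that time, with a chi-square per degree of freedom over genes of 37.96 and 41.24 against them, while all other pairs within a group were between 2.44 and 7.62. Without it, 50 of the 56 members still met the rule, the others being Mylk2, Flt1, Mob3b, Syt7, Gm9869, and ENSMUSG00000097058, and the median difference of the 56 at 24 h was 0.05, with 30 overlapping. With the 8 h libraries alone in the fit, so without it, 50 of 55 members tested were called higher at 8 h, against 36.3% of all genes tested. This compares with the 49 of 56 given next.

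**Figure D1:**
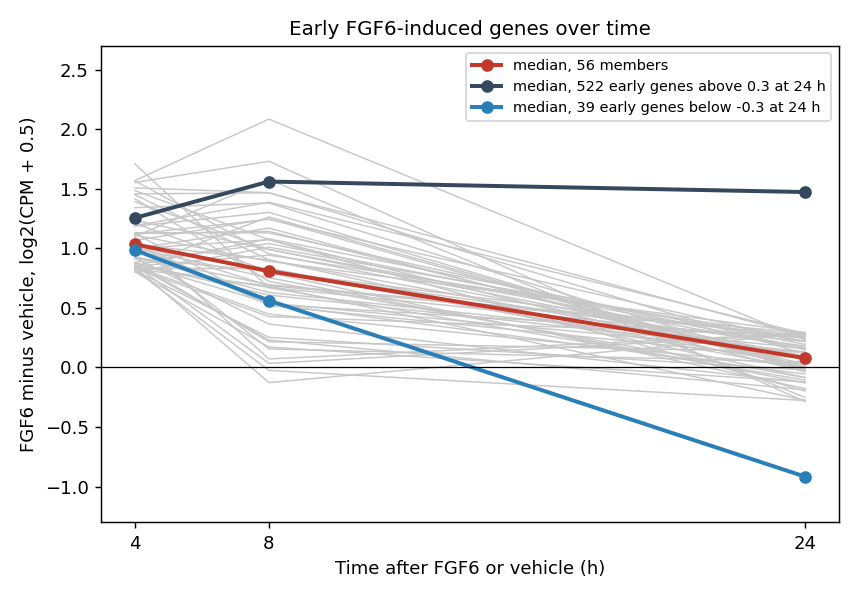
Difference between FGF6 and vehicle group means on the log2(CPM + 0.5) scale (y axis) at 4, 8, and 24 h (x axis), with a grey line for each of the 56 members and thick lines for the medians of the members, of the 522 early genes above 0.3 at 24 h, and of the 39 early genes below -0.3 at 24 h. The members' median went from 1.03 to 0.81 to 0.08, and their lines spread at 8 h from -0.13 to 2.09.

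The 8 h libraries took no part in the rule other than in the level limit, so the question put to them was whether these genes were still higher at 8 h. Most were. edgeR's quasi-likelihood test, fitted to all 15071 genes with Benjamini-Hochberg adjustment over all of them, called 49 of the 56 members higher in FGF6 at an adjusted p under 0.05, against 32.4% of all genes tested. It called 0 members lower, against 38.4% of all genes, and 0 had an unadjusted p under 0.05 in that direction. limma and DESeq2 also called 0 members lower. Of the members, 29 were at least 2-fold higher and past the test, against 7.39% of all genes. In 47 members every FGF6 library lay above every vehicle library, against 30.1% of all genes. The members' median fitted log2 fold change at 8 h was 1.05, compared with -0.05 over all genes that passed the level limit. It was 1.82 for the 522 early genes that stayed higher at 24 h and 0.65 for the 39 that went lower. At the threshold the study used (0.25), 53 members were called, against 37.8% of all genes. TMM scaling, which the fit used, moved the median log2 fold change of all genes by 0.10 at 4 h, 0.06 at 8 h, and 0.01 at 24 h relative to library size alone.

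**Figure D2:**
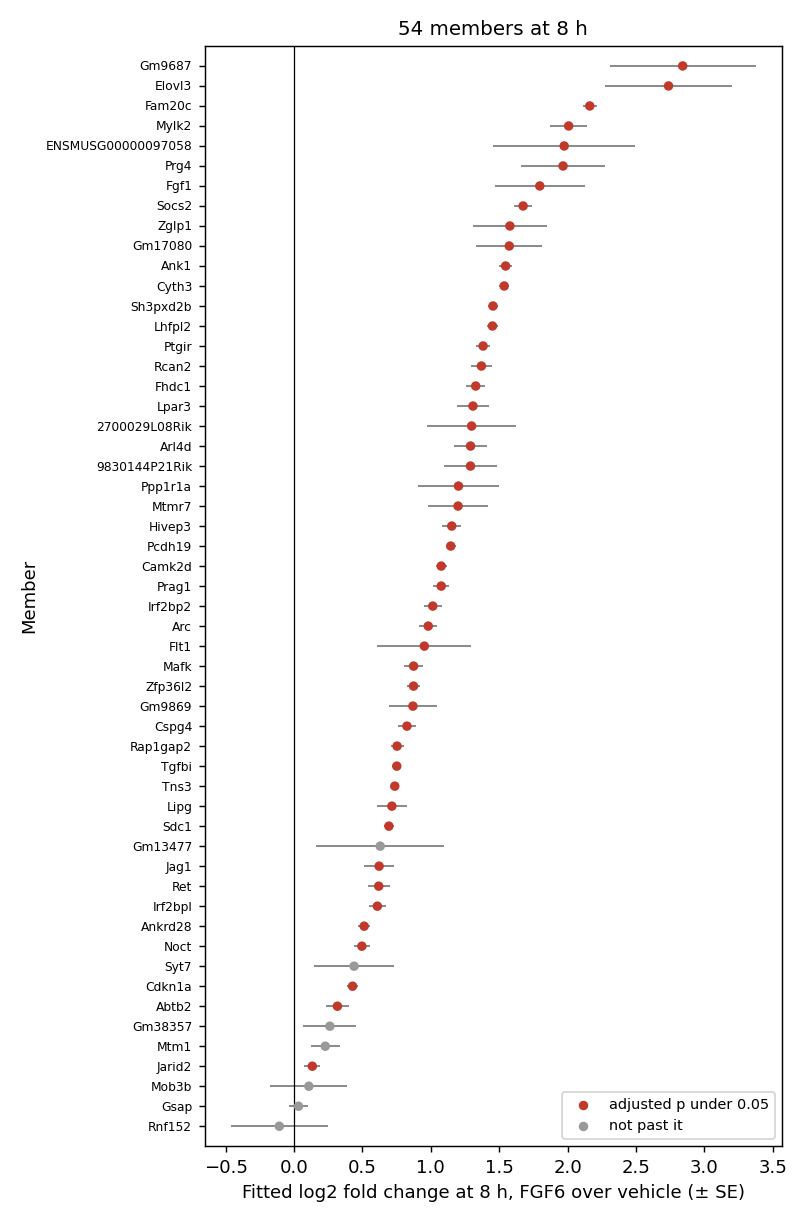
Fitted log2 fold change at 8 h, FGF6 over vehicle (x axis), for 54 of the 56 members (y axis, in order of the fitted value), with bars for the standard error from edgeR's quasi-likelihood fit. Red points passed an adjusted p of 0.05 and grey points did not, and 47 of the 54 are red with the lowest fitted value at -0.11 for Rnf152.

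The members took different paths between 4 and 8 h. For 18 of the 56 (32.1%) the difference at 8 h was at least as large as at 4 h, compared with 405 of the 522 genes that stayed higher (77.6%), values that were not tested against each other. Another 9 members were within 0.3 of 0 at 8 h, and the remaining 29 lay between these. Because the 8 h difference itself made this division, calls at 8 h were not counted by it. The group held genes that were within 0.3 of vehicle by 8 h and others whose difference was largest at that time.

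Sorted by known roles, a grouping made after the values were seen, 10 members were receptors, ligands, or other surface proteins, and all 10 were higher at 8 h. Over all 56 members, 49 were called higher and 29 at least 2-fold, beside 32.4% and 7.39% of all genes tested. The counts by role, here and below, are therefore a description only. The most abundant was Sdc1 (ENSMUSG00000020592, chromosome 12, 8771323 to 8793715 in GRCm38, GENCODE M21), which encodes the heparan sulfate proteoglycan syndecan-1. It had 1397, 1460.0 and 1389.8 CPM in the FGF6 libraries at 4 h against 761, 738 and 732 in vehicle, 542, 533 and 513 against 361, 346 and 319 at 8 h, and 225, 231 and 226 against 201, 212 and 198 at 24 h. The levels were lower at each later time in both arms, and at 24 h the FGF6 libraries remained a little above vehicle. At 8 h, its fitted log2 fold change was 0.69 ± 0.04 (SE, n = 3 libraries per group, edgeR adjusted p = 1.55e-14). Per kilobase of exonic sequence, Sdc1 reached 372 CPM per kb in FGF6 at 4 h, compared with 211 for Zfp36l2 and 127 for Tgfbi. Cspg4, the NG2 proteoglycan, was at 104 ± 2.43 CPM (mean ± SD) in FGF6 and 51.5 ± 3.02 in vehicle at 4 h, and at 42.2 ± 1.89 and 24.8 ± 2.79 at 8 h.

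Ret, the receptor tyrosine kinase for ligands of the GDNF family, had 28.9, 30.9 and 30.99 CPM in FGF6 at 4 h and 14.8, 15.9 and 13.1 in vehicle. By 24 h all 6 libraries were between 1.55 and 1.91 CPM, so that Ret was low in both arms, and the groups overlapped. In between, at 8 h, 12.7, 11.96 and 12.9 CPM in FGF6 stood clear of 9.11, 8.56 and 7.804 in vehicle (log2 fold change 0.62 ± 0.08, edgeR adjusted p = 2.3e-07). Ptgir, the prostacyclin receptor, behaved differently, since its FGF6 level was nearly as high at 8 h as at 4 h. It was at 74.5, 70.8 and 70.9 CPM in FGF6 at 4 h, 69.9, 65.6 and 68.2 at 8 h, and 37.1, 38.8 and 35.3 at 24 h. In vehicle it was at 31.2, 31.7 and 31.3, then 28.1, 25.4 and 28.3, and then 38.05, 39.3 and 35.8 CPM. The groups were far apart at 4 and 8 h and overlapped at 24 h, and the 8 h log2 fold change was 1.38 ± 0.05 (edgeR adjusted p = 1.68e-18). Lpar3, a lysophosphatidic acid receptor, differed in the vehicle arm. It was at 9.08 ± 0.9600, 11.3 ± 1.11, and 9.73 ± 1.08 CPM in FGF6 at the 3 times, while vehicle went from 4.29 ± 0.653 and 4.73 ± 0.281 to 9.85 ± 1.25.

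Fgf1, itself a paracrine FGF, was present at a low level. It had 2.38, 1.79 and 2.14 CPM in FGF6 against 0.437, 0.411 and 0.442 in vehicle at 4 h, and 2.23, 1.11 and 1.27 against 0.3302, 0.397 and 0.6801 at 8 h. The 8 h groups did not overlap (log2 fold change 1.80 ± 0.33, edgeR adjusted p = 2.7e-05). At 24 h, vehicle (0.563, 0.956 and 1.27) and FGF6 (1.01, 0.844 and 0.8300) overlapped. Jag1, a Notch ligand, was at 12.2 ± 1.71 CPM in FGF6 and 5.66 ± 0.6398 in vehicle at 4 h, and still 8.34 ± 0.875 against 5.66 ± 0.0363 at 8 h (log2 fold change 0.62 ± 0.11). Pcdh19, a protocadherin of cell adhesion, was as high at 8 h (368 ± 7.44 CPM) as at 4 h (362 ± 8.85) in FGF6, with vehicle at 174 ± 5.27 and 199.8 ± 10.1. Flt1, a VEGF receptor, was under 4 CPM in every library, and its 8 h log2 fold change was 0.95 ± 0.34. The 5 endothelial markers, which did not include Flt1, summed to 1.88 to 2.36 CPM in FGF6 against 0.942 to 1.70 in vehicle at 4 h, to 2.27 to 3.58 against 0.394 to 0.991 at 8 h, and to 3.64 to 5.57 against 0.986 to 1.34 at 24 h. They were thus higher in FGF6 at each time, while the libraries of Flt1 were apart at 4 h and overlapped at 8 and 24 h, and their part in its values was not tested.

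Among 4 secreted or secretory pathway proteins, all higher at 8 h, Fam20c (ENSMUSG00000025854, chromosome 5, 138754514 to 138810077) was the clearest. It encodes the Golgi kinase that phosphorylates many secreted proteins. Fam20c was at 297, 291 and 282 CPM in FGF6 at 4 h against 101, 98.2 and 93.2 in vehicle, and at 192, 187 and 174 against 42.8, 45.6 and 40.7 at 8 h. FGF6 and vehicle were each lower at 8 h than at 4 h, vehicle by the larger factor, so the difference between them was larger at 8 h. The 8 h log2 fold change of 2.16 ± 0.05 corresponds to 4.48-fold (edgeR adjusted p = 6.3e-22). By 24 h, 54.7, 56.2 and 59.4 CPM in FGF6 lay only just above 53.3, 44.8 and 46.7 in vehicle. Tgfbi, an extracellular matrix protein, was at 478 ± 7.02, 411 ± 8.805, and 279.9 ± 8.49 CPM in FGF6, with vehicle between 232 ± 7.91 and 255 ± 4.51. Lipg, endothelial lipase, had the same difference pattern with a dip at 8 h in both arms, to 11.2 ± 1.396 in FGF6 and 7.21 ± 0.775 in vehicle. Prg4, the lubricant proteoglycan of joints, stayed under 3 CPM.

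All 8 members that act on small GTPases, membranes, or the cytoskeleton were higher at 8 h, 6 of them at least 2-fold. Of all 56 members, 49 and 29 were. Cyth3 (ENSMUSG00000018001, chromosome 5, 143622447 to 143710250), an exchange factor for ARF GTPases that binds PI3K lipids, had 286, 288 and 295 CPM in FGF6 against 98.2, 103 and 104 in vehicle at 4 h. At 8 h it had 239, 238 and 235 against 83.9, 88.4 and 84.2, and at 24 h 112, 106 and 106 against 101, 97.1 and 101. The vehicle libraries were lowest at 8 h and near their 4 h level again at 24 h, the FGF6 libraries stayed high through 8 h, and the 8 h log2 fold change was 1.54 ± 0.04 (edgeR adjusted p = 4.07e-22). Sh3pxd2b, a podosome adaptor, was at 687 ± 19.8 and 419 ± 16.01 CPM in FGF6 at 4 and 8 h and at 301 ± 4.65 and 159.9 ± 3.68 in vehicle. Its difference was larger at 8 h (1.39) than at 4 h (1.19). Ank1, an ankyrin that ties membrane proteins to spectrin, was at 132 ± 1.04 CPM against 47.8 ± 1.99 at 4 h and at 69.2, 70.4 and 69.9 against 24.8, 26.5 and 23.5 at 8 h. Tns3, a focal adhesion tensin, and Prag1, a pseudokinase of cell morphology, had 8 h log2 fold changes of 0.74 ± 0.03 and 1.08 ± 0.06. The remaining members of this kind were Fhdc1, a formin (1.33), Arl4d, an ARF-like GTPase (1.29), and Rap1gap2, which inactivates RAP1 (0.75).

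**Figure D3:**
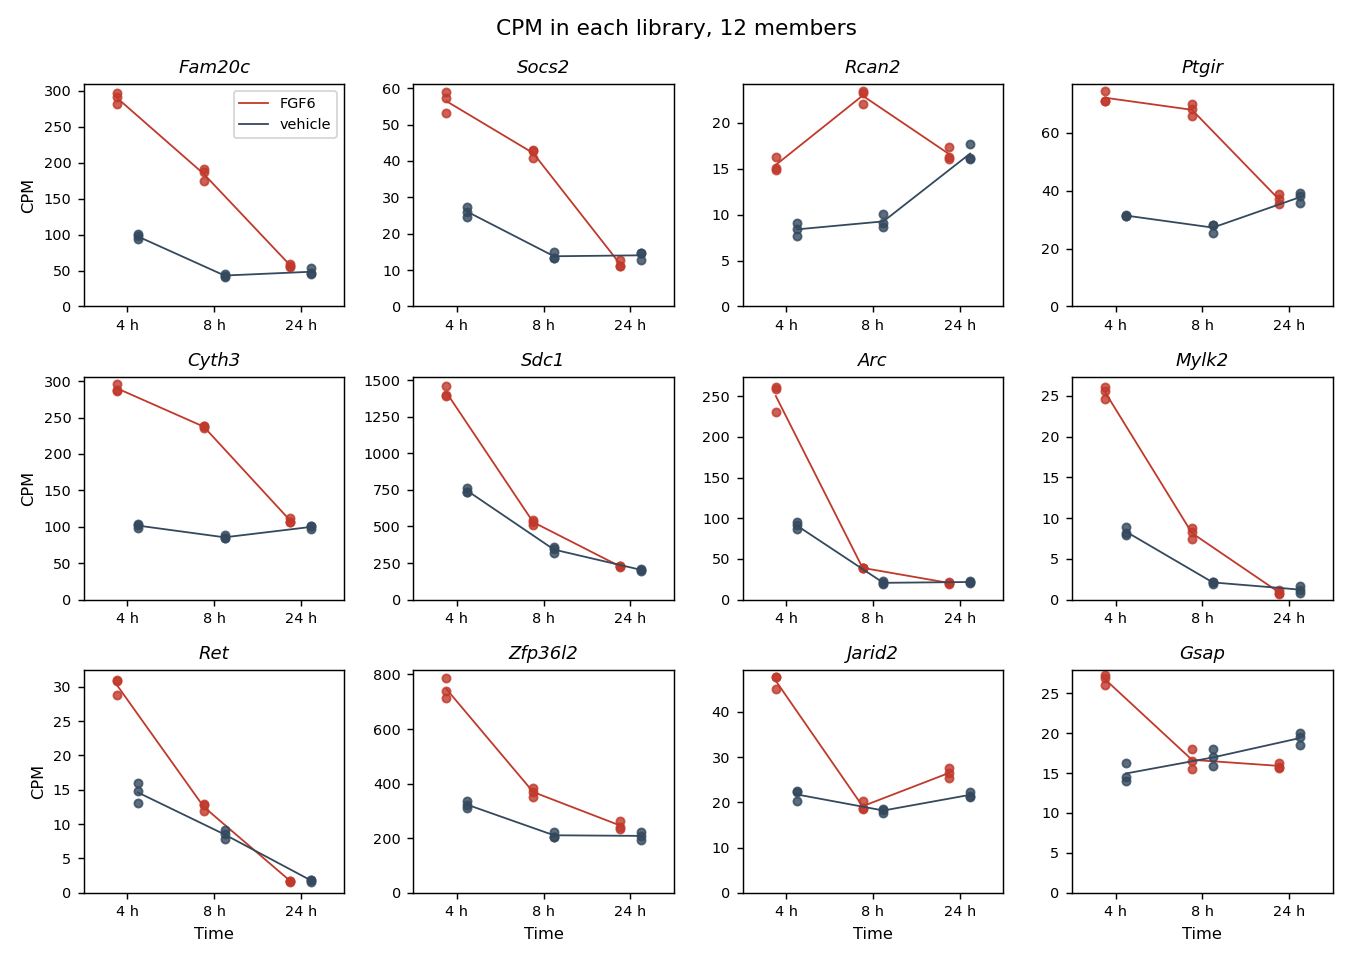
CPM (y axis, from 0) in each of the 18 libraries at 4, 8, and 24 h (x axis) for 12 members, with FGF6 in red, vehicle in blue-grey, a point for each library, and lines through the group means. Fam20c, Socs2, Rcan2, and Ptgir remained well apart at 8 h, while Jarid2 and Gsap overlapped by then, and in Sdc1, Arc, Mylk2, and Ret vehicle itself was lower at each later time or flat after 8 h.

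Of 8 members of kinase, phosphatase, and calcium signaling, 6 were higher at 8 h and all 6 at least 2-fold. Mylk2, the myosin light chain kinase of skeletal muscle, had 26.1, 25.6 and 24.6 CPM in FGF6 against 7.903, 8.19 and 8.91 in vehicle at 4 h, and 8.28, 7.41 and 8.796 against 2.18, 2.21 and 1.93 at 8 h. Its groups were apart at both times, and the 8 h log2 fold change was 2.01 ± 0.13 (edgeR adjusted p = 9.96e-13). At 24 h, no library of either group exceeded 1.64 CPM. The 6 skeletal muscle markers were not members. Their sum was at 8.38 to 8.99 CPM in FGF6 against 15.5 to 18.6 in vehicle at 4 h, and at 6.30 to 7.54 against 11.1 to 14.5 at 8 h. At 24 h it was at 1.83 to 2.31 against 7.71 to 11.2 CPM. The sum was thus lower in FGF6 at each time and lower in both arms at 24 h than at 4 h. Its part in the values of Mylk2 was not tested. Socs2, a suppressor of cytokine signaling, was at 53.2, 58.9 and 57.2 CPM against 27.4, 24.6 and 26.1 at 4 h and at 42.9, 42.9 and 40.7 against 13.3, 14.8 and 13.3 at 8 h. Its difference was 1.10 at 4 h and 1.58 at 8 h, and the fitted 8 h log2 fold change was 1.67 ± 0.07 (edgeR adjusted p = 3.15e-17). Rcan2, a regulator of the phosphatase calcineurin, was highest in FGF6 at 8 h, with 22.1, 23.4 and 23.3 CPM against a mean of 9.25 ± 0.686 in vehicle. It differed from most members in that vehicle was higher at 24 h (16.6 ± 0.926) than at 4 h (8.38 ± 0.739), whereas FGF6 was at 15.4 ± 0.718 and 16.6 ± 0.703. Camk2d, a calmodulin-dependent kinase, had an 8 h log2 fold change of 1.08 ± 0.04. Ppp1r1a, an inhibitor of protein phosphatase 1, and Mtmr7, a phosphoinositide phosphatase, were under 5 CPM in every library, with 1.20 ± 0.30 and 1.20 ± 0.22.

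Genes sorted as nuclear or RNA regulators made up 10 members, all higher at 8 h but only 3 of them at least 2-fold. The class is loose for Noct, a phosphatase described below. Among the 10 was Jarid2, whose 8 h libraries overlapped and whose call (edgeR adjusted p = 0.043) was lost in 9 of the alternative fits. Zfp36l2 (ENSMUSG00000045817, chromosome 17, 84183931 to 84187947), whose protein binds AU-rich elements and promotes mRNA decay, had 739.5, 787 and 713 CPM in FGF6 against 336, 322 and 309 in vehicle at 4 h. It had 386, 371 and 351 against 222, 206 and 204 at 8 h (log2 fold change 0.87 ± 0.05, edgeR adjusted p = 2.85e-14), and 235, 242 and 263 against 222, 209 and 194 at 24 h. The gap narrowed over time, but the libraries still did not overlap at 24 h. Cdkn1a, the cyclin-dependent kinase inhibitor p21, was at 328, 319 and 305 CPM against 173, 161 and 169 at 4 h, and at 190.4, 199.7 and 192 against 154, 154 and 143 at 8 h. At 24 h all FGF6 libraries (144, 143 and 145) were slightly below the vehicle libraries (166, 161 and 146). Hivep3, a zinc finger transcription factor, was at 66.9 ± 4.08, 38.2 ± 1.98, and 7.68 ± 0.143 CPM in FGF6 and at 33.3 ± 3.04, 17.9 ± 1.42, and 8.88 ± 0.963 in vehicle. Mafk, a small MAF protein, had an 8 h log2 fold change of 0.87 ± 0.07. Irf2bp2 and Irf2bpl, related proteins of the IRF2-binding family, had 1.01 ± 0.07 and 0.61 ± 0.06. Noct, nocturnin, a phosphatase with a daily rhythm in many tissues, had 0.50 ± 0.06. Zglp1, a GATA-like zinc finger protein, was under 3 CPM.

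Arc and Elovl3 stood outside these classes. Arc (ENSMUSG00000022602, chromosome 15, 74669083 to 74672570) is an immediate early gene best known from neurons. It had 259, 262 and 230.1 CPM in FGF6 against 86.3, 95.8 and 91.5 in vehicle at 4 h. Both arms were far lower at 8 h, at 38.96, 39.03 and 39.05 against 22.6, 20.5 and 18.9, with the FGF6 libraries still above vehicle (log2 fold change 0.98 ± 0.07, edgeR adjusted p = 1.21e-12), and overlapped at 24 h. Elovl3, a fatty acid elongase of brown fat, never exceeded 1.35 CPM. At 8 h it had 13 to 23 counts in the FGF6 libraries and only 2 to 3 in the vehicle libraries, so its fitted value, which was among the highest, rests on very few counts, as does that of the pseudogene Gm9687 (15 to 23 against 2 to 3 counts). Lhfpl2, a tetraspan membrane protein, was at 328 ± 11.2 CPM against 129 ± 3.896 at 4 h and 159 ± 5.799 against 60.8 ± 3.94 at 8 h. Ankrd28, a subunit of protein phosphatase 6, had an 8 h log2 fold change of 0.51 ± 0.04.

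The members that were nearest to vehicle at 8 h were a mixed set. Jarid2 (ENSMUSG00000038518, chromosome 13, 44729474 to 44921643), a cofactor of the polycomb complex PRC2, had 47.8, 45.2 and 47.6 CPM in FGF6 at 4 h against 20.4, 22.6 and 22.3 in vehicle. At 8 h the libraries overlapped, with 18.6, 18.5 and 20.3 in FGF6 and 17.7, 18.3 and 18.5 in vehicle, although the fit still called it (log2 fold change 0.13 ± 0.06, edgeR adjusted p = 0.043). This call was lost with limma, with library sizes alone, with upper-quartile factors, without the low-count filter, and without 5 of the 6 libraries at 8 h in turn. At 24 h Jarid2 was again slightly higher in FGF6, at 25.5, 26.6 and 27.5 against 21.3, 22.3 and 21.4. Gsap, the gamma-secretase activating protein, had 26.04, 27.3 and 26.9 CPM against 13.99, 14.6 and 16.3 at 4 h and 16.5, 15.5 and 17.96 against 17.01, 17.98 and 15.9 at 8 h. For Gsap the 8 h log2 fold change was 0.03 ± 0.07 and its sign turned with library sizes alone, with upper-quartile factors, and without vehicle replicate 3.

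Abtb2, a BTB domain protein, was at 16.2 ± 1.43 CPM in FGF6 and 13.5 ± 1.42 in vehicle at 8 h and was called (log2 fold change 0.32 ± 0.08, edgeR adjusted p = 0.00152). Mtm1, the phosphoinositide phosphatase myotubularin, had 9.45, 10.2 and 9.95 against 8.72, 7.801 and 9.88 CPM and missed the threshold (log2 fold change 0.23 ± 0.11, edgeR adjusted p = 0.0573), but passed it with DESeq2, with the 8 h libraries alone, with either other low-count filter, and without vehicle replicate 3. Syt7, a calcium sensor of exocytosis, Mob3b, of the MOB kinase activator family, and Rnf152, a lysosomal ubiquitin ligase, were at or under 3.52 CPM in every library. Their log2 fold changes were 0.44 ± 0.29, 0.11 ± 0.28, and -0.11 ± 0.35, and the edgeR adjusted p was 0.187, 0.742, and 0.797. With standard errors of this size, the missed thresholds do not show that the groups were equal. The other members not called were the gene models Gm13477 (edgeR adjusted p = 0.234) and Gm38357 (0.228).

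The return by 24 h was set beside the change in each arm. From 4 to 24 h, the FGF6 group mean was lower in 54 of the 56 members and higher in Rcan2 and Lpar3, with a median change of -1.37 on the log2(CPM + 0.5) scale. The vehicle mean was lower in 43 members, with a median of -0.41, and without vehicle replicate 3 at 24 h it was lower in 41, with a median of -0.33. The median vehicle change was -0.38 for the 522 early genes that stayed higher and -0.05 for all genes over the level limit, so a lower vehicle level was shared with the other early genes. On the same scale, vehicle was at least 2-fold lower at 24 h in 10 members (17.9%), compared with 14.4% of the genes that stayed higher and 2.71% of all genes over the level limit. The largest changes in both arms were those of Mylk2 (-4.19 in FGF6 and -2.35 in vehicle), Ret (-3.82 and -2.74), and Arc (-3.58 and -2.05). Only in 3 members did a higher vehicle level make up most of the loss of the difference, namely Lpar3 (1.11 in vehicle), Rcan2 (0.95), and Lipg (0.46). Cyth3 and Jarid2 had vehicle changes of -0.03 and -0.01, so that nearly the whole return was in the FGF6 arm. These changes include the 4 and 24 h values of the rule, and they were not tested.

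**Figure D4:**
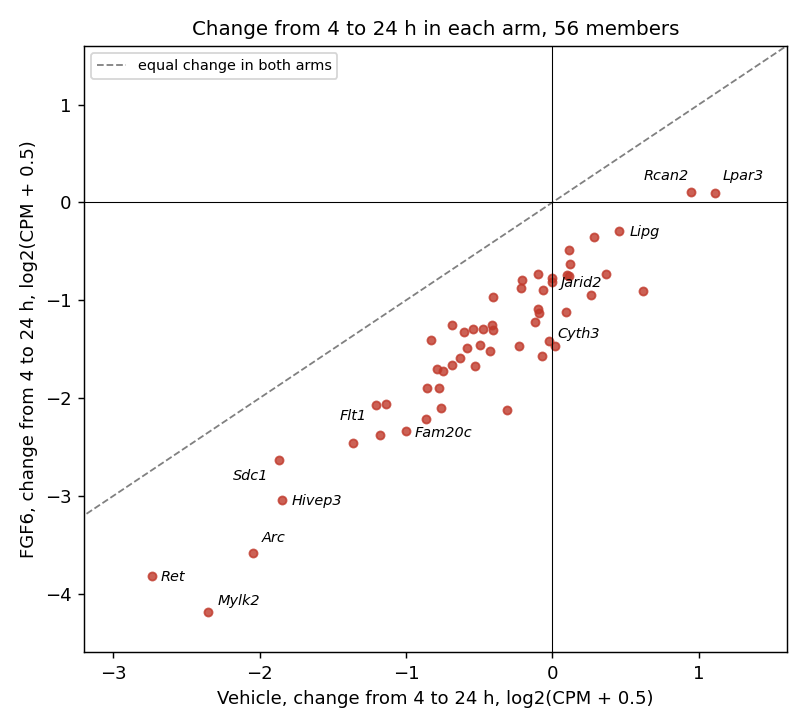
Change of the group mean from 4 to 24 h on the log2(CPM + 0.5) scale in vehicle (x axis) and FGF6 (y axis), with a point for each of the 56 members and a dashed line where both arms change equally. All points lie below the line, which the rule requires, and they stretch from Mylk2 at -4.19 in FGF6 to Rcan2 and Lpar3 at 0.10.

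The lists of pathways downstream of FGF receptors are set beside the members' share of all early genes, which was 9.08%, and hold too few early genes for their counts to be read against it. Among 29 immediate early genes, 13 had a difference of at least 0.8 at 4 h, and 12 of these were still above 0.3 at 24 h, which left Arc as the only member. All 13 early genes among 27 inhibitors of ERK and FGF signaling stayed higher and none was a member, and the same held for the 3 early ETS factors. At 8 h, 21 of 28 immediate early genes tested were higher and 5 lower, and 19 of 26 of the ERK and FGF inhibitors were higher and 3 lower. Over all genes tested, 32.4% were higher and 38.4% lower at 8 h. Zfp36l2 was the only early gene among 12 regulators of mRNA decay. Fgf1 was the only member among 44 growth factors and cytokines, Jag1 among 38 genes of the WNT, Notch, and Hedgehog pathways, and Cdkn1a among 22 cyclins, kinases, and inhibitors of G1. Of the 75 genes of ribosome biogenesis found in the table, 73 were higher at 8 h. Only 6 of the 75 were early, and all 6 stayed higher at 24 h, so none was a member.

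In GENCODE release M21, 55 members could be placed, and 48 of these were protein-coding. The protein-coding members were long genes, with a median of 54.3 kb. Among protein-coding genes, the median was 29.1 kb for the early genes that stayed higher and 24.6 kb for all over the level limit. The pentamer ATTTA, the core of AU-rich elements, occurred in the 3′ untranslated region of 38 of 48 protein-coding members (79.2%), 83.2% of the early genes that stayed higher, and 68.4% of all genes over the limit. The median length of that region was 1738 bases in the members, 1455 in the early genes that stayed higher, and 1050 in all genes over the limit. Per kilobase, ATTTA was less frequent in the members (1.59) than in the genes that stayed higher (1.945) and all genes (1.83), and the median AU content was 52.5% against 55.6% and 55.5%, with no test of these differences. The longer element TTATTTATT, which ZFP36 proteins bind, occurred in 6 of the 48 (12.5%), against 14.5% and 7.60%. These shares describe letters in the annotated transcripts, and decay was not measured. The element is shown in capitals for 5 of the 6 members, with 8 bases on either side on the transcript strand, because Zfp36l2 encodes a protein that binds such sites and carries the site itself. Pcdh19 holds overlapping elements at positions 2834 and 2838 of its 3′ untranslated region, and only the first is in capitals.
Jag1: tgactttaTTATTTATTttttttta
Noct: atttcaagTTATTTATTtgtgggat
Mob3b: tattatcaTTATTTATTtgcatgca
Zfp36l2: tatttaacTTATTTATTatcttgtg
Pcdh19: tttcctctTTATTTATTtatttttc
These 5 genes differed at 8 h, from Mob3b (log2 fold change 0.11 ± 0.28) and Noct (0.50 ± 0.06) to Pcdh19 (1.15 ± 0.04). The element was thus found in members with smaller and with larger fitted changes at 8 h, and the value of Mob3b was imprecise.

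For 32 members, RefSeq (GRCm38.p6) gave 42 promoter windows of 250 bases before to 50 after the transcription start. The EGR site GTGGGCG, the letters bound by EGR1 and its relatives, was found on either strand in 8 of the 42 (19.0%) against 14.1% of the windows of all genes over the level limit. Some members gave several windows, so the windows are not separate units. Overlapping windows of Mtm1 held the same EGR site, which was thus counted more than once. By gene, 7 of the 32 members held the EGR letters. The share by gene over all genes was not counted, so this count has nothing to be read against. The full cAMP response element TGACGTCA was found in 3 (7.14%) against 3.05%, the ETS site CCGGAAG in 1 (2.38%) against 17.3%, the AP-1 site TGACTCA in 2 (4.76%) against 3.83%, and the GC box GGGCGG in 31 (73.8%) against 62.6%. GC boxes can overlap EGR sites. A single window is 2.38% of the 42, and a match is a run of letters and not a bound site. The 100 bases before the start are printed for Cyth3 and Fhdc1, which hold an EGR site, and for the 3 members with a cAMP response element, in the direction of the gene with the element in capitals, because these stretches hold no exon in GENCODE M21. The Fhdc1 stretch lies before an internal start, inside the gene's GENCODE span (84442198 to 84480429). Another RefSeq window of Fhdc1, chr3:84480390-84480689, held no EGR site.
Cyth3 (EGR, chr5:143622347-143622446, plus strand): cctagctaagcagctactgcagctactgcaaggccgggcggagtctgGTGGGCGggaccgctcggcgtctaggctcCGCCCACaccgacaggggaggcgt
Fhdc1 (EGR, chr3:84479492-84479591, minus strand): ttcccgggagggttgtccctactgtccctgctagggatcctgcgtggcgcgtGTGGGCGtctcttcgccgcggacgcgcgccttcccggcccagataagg
Arl4d (cAMP, chr11:101665441-101665540, plus strand): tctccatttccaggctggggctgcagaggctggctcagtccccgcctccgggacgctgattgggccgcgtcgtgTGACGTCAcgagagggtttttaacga
Flt1 (cAMP, chr5:147726012-147726111, minus strand): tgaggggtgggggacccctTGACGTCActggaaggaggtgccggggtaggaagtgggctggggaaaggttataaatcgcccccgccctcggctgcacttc
Irf2bpl (cAMP, chr12:86884815-86884914, minus strand): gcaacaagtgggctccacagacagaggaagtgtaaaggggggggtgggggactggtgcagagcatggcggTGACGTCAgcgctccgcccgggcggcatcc
Cyth3 holds 2 EGR elements, at 53 and 24 bases before the start and on opposite strands, and had an 8 h log2 fold change of 1.54. Fhdc1 was at 1.33, and the other members with the EGR letters in their windows were at 1.45 (Sh3pxd2b), 1.45 (Lhfpl2), 0.75 (Rap1gap2), 0.69 (Sdc1), and 0.23 (Mtm1). Of these 7 members, Mtm1 was not called. The members with a cAMP response element were at 1.29 (Arl4d), 0.95 (Flt1), and 0.61 (Irf2bpl).

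The counts of some members are uncertain, because they overlap other genes and the settings for strand and for shared reads are not given in the sources used here. Overlaps on the same strand are uncertain with any strand setting. Gm38357 lies inside Noct on the same strand, and Noct was itself a member with a difference of 0.83 at 4 h beside 0.80 for Gm38357. The unspliced model 2700029L08Rik lies inside Clip2 on the same strand, a gene with a difference of 1.16 at 4 h. On the opposite strand, 9830144P21Rik shares 452 exonic bases with Slc20a1 (difference 1.84 at 4 h), Gm17080 275 bases with Slc29a1, and Gm13477 667 with Gtdc1. Of the exonic bases of Zglp1, 1003 of 1088 are shared with the read-through model Gm49373 on the same strand. The identifier ENSMUSG00000097058 had no position in release M21 and is named only.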

How the data were processed

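Total RNA of 18 libraries from a brown preadipocyte line was sequenced. Reads were mapped by the authors with STAR (GRCm38.p4) and tallied over GENCODE genes by featureCounts of the Subread package, and the deposited values are raw counts per gene. Versions, annotation release, strand setting, and treatment of multimapping reads are not given in the sources used here. Group and time came from the labels and the dose from the study's description. Members were found from CPM over library totals, with a pseudocount of 0.5. Genes kept by filterByExpr (15071 of 48023) were fitted with edgeR 4.0.16 (R 4.3.3), TMM factors, and the quasi-likelihood test over the 6 groups, and FGF6 was compared with vehicle at 8 h. P-values were adjusted by Benjamini-Hochberg over all genes tested, with a threshold of 0.05. With 3 libraries against 3, an exact two-sided permutation test cannot go below 0.1. Alternatives were limma 3.58.1 with voom, DESeq2 1.42.0, other scalings, filters, libraries, and a replicate block. Values of the 56 members without vehicle replicate 3 at 24 h were added after the data were seen. The fit was tested on simulated data. Names and positions came from GENCODE M21, which held 98.3% of the identifiers, and promoter windows from RefSeq. Precision is limited by the totals of 24327816 to 33471980 counts.

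The members and gene lists were chosen with earlier results of these data known, and the 4 and 24 h values that chose the members carry no test. Named genes were the members with the 12 highest differences at 4 h, the 8 highest CPM in FGF6 at 4 h, the 6 highest and 6 lowest fitted changes at 8 h, the 3 on either side of each limit, those in a gene list, and those with the 3 largest changes in each arm. Other members named by role were chosen after their values were seen. Results on 2 members are not reported here, though they stay in the counts over all members and groups.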

Additional observations from a re-analysis of the deposited data

Results flagged for a closer look

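In 5 members every FGF6 library lay above every vehicle library at 4 h and below every vehicle library at 24 h. Of all genes tested, only 25.4% had overlapping libraries at 24 h, so libraries that stood apart were common at that time. The share of all genes with both patterns was not counted. The rule used both times, and the difference between the times was not tested. Gsap had 15.7, 16.3 and 15.7 CPM in FGF6 and 20.1, 18.6 and 19.5 in vehicle at 24 h, a log2(CPM + 0.5) difference of -0.28. Rap1gap2 had 26.8, 25.6 and 26.5 against 32.8, 31.6 and 31.3 CPM (-0.28). Hivep3, at 7.55, 7.67 and 7.83 against 9.75, 9.05 and 7.85 CPM (-0.20), was low in both arms by then. Mafk had 26.8, 26.8 and 23.8 against 29.7, 27.7 and 30.3 CPM (-0.18). Cdkn1a had 144, 143 and 145 against 166, 161 and 146 CPM (-0.13), with the nearest libraries at 145.43 and 145.84 CPM. These differences are all inside the limit of -0.3 that members had to meet.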

How the results depend on the processing

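The number of members was 56, with 52 to 58 when each of the 18 libraries was left out in turn, 75 with TMM-scaled library sizes, 50 and 55 with pseudocounts of 1 and 0.1, 49 at 2 CPM, and 65 with no level limit. All 56 were kept with TMM-scaled sizes, 44 with the pseudocount of 1, and 47 with 0.1. The 49 members higher at 8 h became 40 of 42 tested when at least 10 counts were required in every library, and 47 to 50 in the other fits, and the 29 at least 2-fold higher became 20 and 28 to 31. Of all genes tested, 37.8% were higher with at least 10 counts, and 17.3% (no low-count filter) to 36.3% (8 h libraries alone) in the other fits. At least 2-fold higher were 5.96%, and 4.35% to 7.82% in the other fits. None of these fits called a member lower, and the main fit called 38.4% of all genes lower. The members' median log2 fold change at 8 h moved from 1.05 to 1.08 with DESeq2, 0.98 with library sizes alone, 1.00 with upper-quartile factors, 0.96 with at least 10 counts in every library, and 1.11 with the 8 h libraries alone, and lay between 1.00 and 1.09 with each 8 h library left out. Same-numbered libraries share only a number (correlations of deviations -0.02 to 0.05), and with replicate number as a block 49 members were higher, 29 at least 2-fold, and 0 lower, with a median of 1.05. With that block, 32.5% of all genes tested were higher and 7.38% at least 2-fold. Of 443 values for 32 named genes, 5 changed sign, all near 0. These were Gsap with library sizes alone (-0.03), with upper-quartile factors (-0.012), and without vehicle replicate 3 (-0.012), Rnf152 without FGF6 replicate 3 (0.21), and Mob3b without vehicle replicate 1 (-0.108). With each 8 h library left out, Gsap ranged from -0.012 to 0.086, Rnf152 from -0.362 to 0.208, and Mob3b from -0.108 to 0.237. The Jarid2 call was lost in 9 fits, with adjusted p of 0.0506 to 0.281, and Mtm1 was called in 5. The cause was not tested. Members under 3 CPM rest on few counts, which limits their precision.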
